A study of Homo sapiens with 12 samples.

Results

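TARDBP, HNRNPA1, HNRNPA2B1 and CHMP2B are 4 genes in which variants cause or have been linked to amyotrophic lateral sclerosis (ALS), a disease of motor neurons, or the related frontotemporal dementia. They were followed on arrays of HEK293 cells, a line made from human embryonic kidney by transformation with adenovirus DNA, and not neuronal tissue. The control group (6 arrays) had received AllStars Negative Control siRNA and the mimic-1825 group (6 arrays) Syn-hsa-miR-1825, a synthetic version of the microRNA miR-1825. Each RNA was given at 5 nM with the HiPerfect reagent, so the cells of all 12 arrays had been transfected, and RNA was taken after 24 h. The series title gives the search for mRNA targets of miR-1825 as the purpose. The 4 genes were taken by symbol from the 14884 genes that had at least 1 named row among the 53617 rows of the Human Gene 2.0 ST array table. Each had exactly 1 row, or transcript cluster, which gathers the probes of a transcript. They had been singled out because their means were higher after the mimic on these same arrays. Their differences between the groups are therefore a description, and counts of them past a threshold are set beside the share over the array without reading anything from them.

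TDP-43, the product of TARDBP, and the heterogeneous nuclear ribonucleoproteins hnRNP A1 and hnRNP A2/B1 are RNA-binding proteins that move between nucleus and cytoplasm and control splicing, stability and transport of mRNA. Each carries a low-complexity, prion-like tail through which it can condense and aggregate, and TDP-43 inclusions are the hallmark of most ALS. TDP-43 also limits its own mRNA, a feedback that keeps its level narrow. CHMP2B works elsewhere, as a subunit of ESCRT-III, the filament that pinches membranes off in endosomes, in cell division and in autophagy. A microRNA loaded into Argonaute pairs with target mRNAs mainly through its seed and usually lowers them.

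The mature miR-1825 sequence is shown first because it defines the treatment. Below it is hsa-miR-199a-5p, the only other name among the RefSeq mature sequences read here that shared the first 6 seed bases. Capitals mark the seed, bases 2 to 8 from the 5′ end.
hsa-miR-1825: uCCAGUGCccuccucucc
hsa-miR-199a-5p: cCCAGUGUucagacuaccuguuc
Both were taken from RefSeq (GRCh38.p14), where miR-1825 lies at chr20:32237830-32237847 on the plus strand. Among 2370 mature names in that table, miR-1825 alone had this 7-base seed, and the pair shares its first 6 bases. Seed sites in the mRNAs of the 4 genes were not analysed here.

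Upstream sequence was read for the genes themselves, as the 250 bases before the annotated start, in RefSeq's GRCh38.p14, because the 4 means stood higher together. Of the 4 genes, 3 had an entry; HNRNPA1 had none. Capitals mark matches, on either strand, to the GC box with letters GGGCGG, the box named CCAAT after its letters, the TATA box with letters TATAAA, the ETS core with letters CGGAAG, the CRE half-site with letters TGACG and the NRF1 half-site with letters GCGCA. These motifs were picked after the sequences had been seen. The only overlap is in CHMP2B, where 2 NRF1 half-sites on opposite strands overlap.
TARDBP, chr1:11012404-11012653, plus strand: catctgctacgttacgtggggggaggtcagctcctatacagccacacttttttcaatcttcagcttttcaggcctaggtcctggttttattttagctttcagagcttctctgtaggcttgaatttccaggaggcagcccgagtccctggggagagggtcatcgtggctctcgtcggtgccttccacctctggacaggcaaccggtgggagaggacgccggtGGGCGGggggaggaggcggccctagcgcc
HNRNPA2B1, chr7:26200747-26200996, minus strand: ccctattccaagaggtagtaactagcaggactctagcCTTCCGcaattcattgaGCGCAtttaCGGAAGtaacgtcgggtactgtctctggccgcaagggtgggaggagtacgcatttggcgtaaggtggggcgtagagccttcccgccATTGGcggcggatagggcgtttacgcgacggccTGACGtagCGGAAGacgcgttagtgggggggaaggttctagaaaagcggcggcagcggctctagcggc
CHMP2B, chr3:87227059-87227308, plus strand: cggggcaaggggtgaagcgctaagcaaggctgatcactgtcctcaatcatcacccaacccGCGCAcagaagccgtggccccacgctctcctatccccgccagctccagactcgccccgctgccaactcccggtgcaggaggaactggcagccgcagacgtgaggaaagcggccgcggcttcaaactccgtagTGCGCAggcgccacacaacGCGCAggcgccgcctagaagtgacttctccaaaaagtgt

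The 3 upstream windows held different motifs. TARDBP had 1 GC box, which 42.6% of the 35116 windows of this length in the table also held. HNRNPA2B1 had 3 ETS cores (at least 1 in 16.5% of all windows), 1 CCAAT box (32.0%), 1 CRE half-site (21.2%) and 1 NRF1 half-site (33.5%). CHMP2B had 4 NRF1 half-sites. None of the 3 held a TATA box, which 10.7% of windows did. The windows held 12, 24 and 22 CpG dinucleotides in TARDBP, HNRNPA2B1 and CHMP2B, against a median of 11 over the table. The NRF1 half-site was the one motif searched that a pair of these windows shared, and a match is a string of letters rather than a site of binding.

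Markers of the labelled HEK293 cells and of other cell types were read from the same arrays. Of 10 HEK293 markers 6 had a named row, all at or above the median row mean of 4.48, from PAX2, a kidney transcription factor, at 5.60 to LIN28B, a let-7 regulator, at 9.99. The mean of these 6 ran from 7.85 to 8.00 in controls and from 7.75 to 7.93 in mimic arrays. Named rows existed for 3 of 10 fibroblast, 4 of 9 leukocyte and 9 of 11 epithelial cancer line markers, whose means lay between 4.46 and 4.65, 3.99 and 4.37, and 4.91 and 5.02 over the 12 arrays, with ranges of the groups that overlapped. Of these, 2 fibroblast markers (LUM at 5.71 and THY1 at 5.27), 2 leukocyte markers (NKG7 at 5.08 and CSF1R at 4.91) and 4 epithelial markers, EPCAM at 7.95 and CLDN3 at 7.15 among them, were at or above the median row mean. DCN, LYZ and CD14, at 2.66, 3.02 and 3.86, were below it, and no row is at 0 on this scale. The median is a loose cut: 10694 of the 14884 genes with a row, not counting the 4 under study, reached it. EPCAM and CLDN3 also lay above the HEK293 markers KRT8 (6.28) and PAX2, so these levels do not identify the cells. The part of these markers in the differences below was not tested.

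TARDBP, which encodes TDP-43, had the widest gap between group means of the 4 genes. Its log2 values ran from 8.60 to 8.80 in the 6 controls, with a median of 8.64, and from 8.78 to 9.17 in the 6 mimic arrays, with a median of 8.86. All 6 mimic arrays lay above the control mean and 4 above every control, but the groups overlapped, because control replicate 5, at 8.80, was above mimic replicates 1 and 6 (8.79 and 8.78). The means were 8.66 ± 0.07 and 8.90 ± 0.15 (SD, n = 6 each), a log2 difference of 0.23 (SE 0.07), or 17.4%. Mimic replicate 4, at 9.17, stood apart from the other mimic arrays, which reached 8.91, and without it the log2 difference was 0.18. That array made the mimic spread wide: among the 13405 rows in the brightest 25%, the TARDBP SD stood at percentile 82.1 in mimic arrays and 36.9 in controls. In bulk RNA such as this, more RNA per cell and more cells that carry it cannot be told apart.

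HNRNPA1 encodes hnRNP A1, a splicing repressor that also exports and stabilises mRNA. Its control values ran from 7.88 to 8.13 with a median of 8.00, and its mimic values from 8.08 to 8.30 with a median of 8.21. Control replicates 2 and 3 were the lowest arrays, and mimic replicate 3, at 8.08, was the only mimic array below the highest control, replicate 5. The means were 8.00 ± 0.09 and 8.20 ± 0.08 (SD, n = 6 each), a log2 difference of 0.20 (SE 0.06), or 15.0%.

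HNRNPA2B1, whose protein hnRNP A2/B1 binds mRNA in transport granules and sorts microRNAs into vesicles, had the smallest of the 4 gaps. Controls ran from 9.05 to 9.25 with a median of 9.18, and mimic arrays from 9.21 to 9.34 with a median of 9.29. Mimic replicates 4 and 5 (9.21 and 9.24) fell below control replicate 4 (9.25), so 4 of 6 mimic arrays cleared every control. The means were 9.17 ± 0.07 and 9.29 ± 0.05 (SD, n = 6 each), a log2 difference of 0.12 (SE 0.05), or 8.77%. Mimic replicate 4 was thus the highest mimic array for TARDBP and the lowest for HNRNPA2B1.

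CHMP2B, the ESCRT-III subunit, was measured with little spread in both groups. Controls ran from 9.04 to 9.22 with a median of 9.15, and mimic arrays from 9.20 to 9.36 with a median of 9.34. Mimic replicate 5, at 9.20, was the only mimic array below the highest control, replicate 1 at 9.22. The means were 9.13 ± 0.06 and 9.31 ± 0.06 (SD, n = 6 each), a log2 difference of 0.18 (SE 0.05), or 13.2%. Its SD stood at percentile 27.7 of the brightest rows in controls and 30.0 in mimic arrays.

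**Figure D1:**
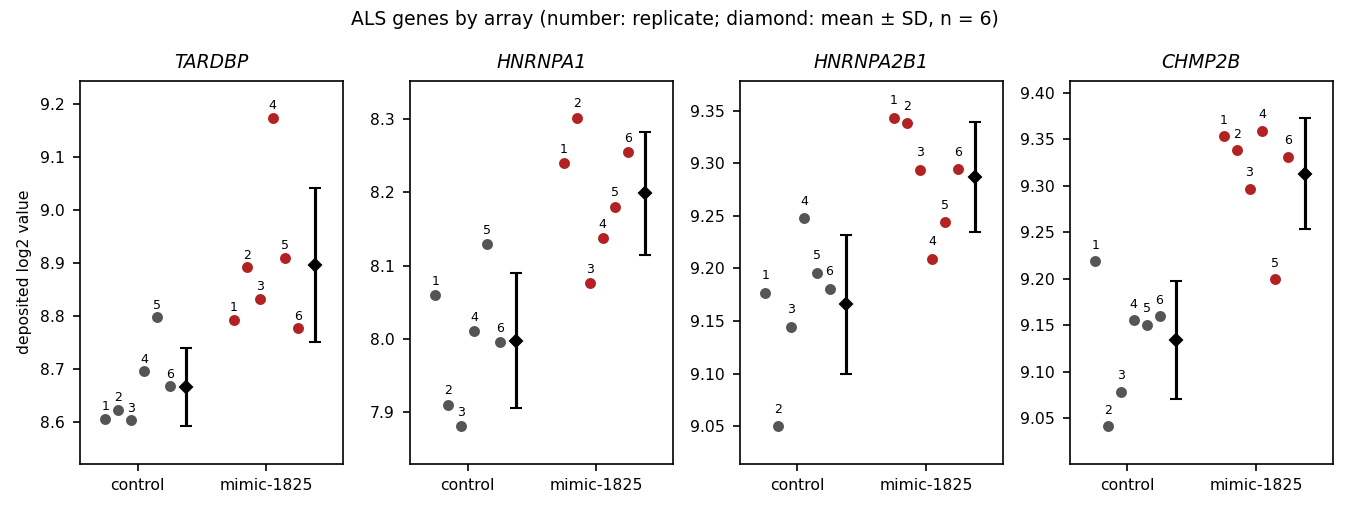
Deposited log2 values (vertical axis, a separate scale for each gene) of the 4 ALS genes in 6 control (grey) and 6 mimic-1825 arrays (red); numbers are replicates and diamonds with bars the mean ± SD. Groups overlap in every panel, and mimic replicate 4 of TARDBP, at 9.17, is the one array far from its group.

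Over all 53617 rows, limma (two-sided, Benjamini-Hochberg adjusted over all rows) called 6 at an adjusted p under 0.05, or 0.0112%, and none of the 4 genes was among them. All 4 were higher at an unadjusted p under 0.05, as were 5.36% of all rows, and 0 of 4 had groups that did not overlap, against 0.759% of rows that lay apart and higher. The 4 genes lie in the brightest 25% of rows, with means of at least 8.10. Among those rows 11.6% were higher at an unadjusted p under 0.05, 4.46% were lower, and the median log2 difference was 0.02, against -0.01 over all rows. When the brightest 25% were fitted alone, limma called 242 of 13405 rows (1.81%), CHMP2B among them. Because the genes were chosen on this contrast, these counts and that call carry no evidence of their own.

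Arrays of the same group were then compared with the group means removed, a measure that the choice of the genes did not use. For HNRNPA1, HNRNPA2B1 and CHMP2B the Pearson correlations over 12 arrays were 0.59 (HNRNPA1 and HNRNPA2B1), 0.55 (HNRNPA2B1 and CHMP2B) and 0.53 (HNRNPA1 and CHMP2B). With HNRNPA1 the correlation was 0.76 in controls and 0.26 in mimic arrays, and with HNRNPA2B1 it was 0.74 and 0.31. The pair of HNRNPA2B1 and CHMP2B was at 0.32 without control replicate 2, against 0.55 with it. For HNRNPA1 and HNRNPA2B1 the values were 0.60 in controls and 0.58 in mimic arrays. Control replicate 2 was below its group mean in all 3 and mimic replicates 1 and 2 above it in all 3. TARDBP did not follow them as closely: its correlations were 0.04 with HNRNPA1, -0.25 with HNRNPA2B1 and 0.15 with CHMP2B. Those values rested on mimic replicate 4, without which they were 0.45, 0.25 and -0.11. Within the 6 controls, TARDBP and HNRNPA1 had a correlation of 0.73, and within the 6 mimic arrays -0.34. These are descriptions over few arrays that share their scaling, with no test. The median deviation of the brightest rows ran from -0.04 to 0.03 over the 12 arrays; its part in these correlations was not tested.

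**Figure D2:**
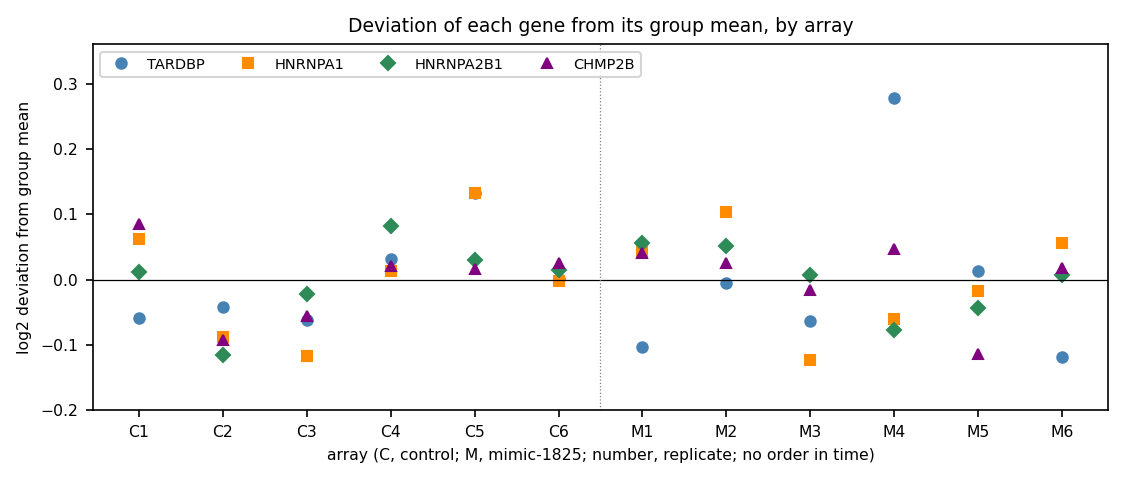
Deviation of each gene from its own group mean (log2, vertical axis) on the 6 control (C) and 6 mimic-1825 (M) arrays, in order of replicate number, which is not an order in time. HNRNPA1, HNRNPA2B1 and CHMP2B lie on the same side of 0 on most arrays, while TARDBP on mimic replicate 4 is far above the rest.

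The genes whose array-to-array deviations were most like each of the 4 were different for each. They were drawn from 10694 other named genes whose mean was no lower than the median row mean, ranked by the same correlation over 12 arrays. For TARDBP the top 5 were POLR3GL, an RNA polymerase III subunit gene (0.89), EFEMP2, CHP1, WFDC5 and TCN2 (0.82). For HNRNPA1 they were the zinc finger genes ZNF529 (0.93) and ZNF610, the transcription factor gene SNAI2, PRR3 and VPS26C (0.85). For HNRNPA2B1 they were ARHGAP11B (0.94), HDLBP, which encodes the RNA-binding protein vigilin, ANPEP, LOXL1-AS1 and TMEM67 (0.90). For CHMP2B they were LINC00641 (0.89), LINC02035, the neural adhesion gene NCAM1, NFRKB and RBM26 (0.83). No gene stood in more than 1 of these lists. The top of a ranking of so many genes over 12 arrays is high by construction, and 5% of candidates exceeded 0.47 for TARDBP, 0.48 for HNRNPA1, 0.57 for HNRNPA2B1 and 0.49 for CHMP2B.

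Copies of the genes had rows of their own, which matters because transcripts of near-identical sequence can bind the same probes. RefSeq names 77 copies of HNRNPA1 by symbol and 5 of TARDBP, of which 3 and 1 had a named row; HNRNPA2B1 and CHMP2B had none by that pattern of symbol. HNRNPA1P10, a transcribed pseudogene, had a pair of rows. The brighter went from 12.74 ± 0.07 to 12.84 ± 0.05 (SD, n = 6 each; log2 difference 0.10, limma adjusted p = 0.462), and the dimmer from 9.40 ± 0.10 to 9.47 ± 0.06 (0.06, limma adjusted p = 0.719). HNRNPA1L2, an intronless coding relative of HNRNPA1, went from 5.97 ± 0.23 to 6.19 ± 0.18 (log2 difference 0.22, limma adjusted p = 0.515). HNRNPA1P33 differed by 0.11 (SE 0.13) and TARDBPP3 by 0.15 (SE 0.09), both on rows whose means, 4.97 and 4.31, were near or below the median row mean. None of these 5 rows passed the adjusted threshold and 1, the brighter HNRNPA1P10 row, had an unadjusted p under 0.05. All 5 had higher means after the mimic, against 46.6% of all rows. Their parents, HNRNPA1 and TARDBP, had been chosen for higher means, so these directions may not be independent of that choice. How much each row reports its own transcript and how much the parent gene was not tested.

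The protein-coding genes on either side of each of the 4, by order in RefSeq, were read to set each gene beside its neighbourhood; they were picked after the values of the 4 were known. HNRNPA2B1 lies next to CBX3 and HNRNPA1 next to CBX5, a pair of heterochromatin protein 1 genes that start back to back with their hnRNP neighbour. CBX3 ran from 9.26 to 9.43 in controls and from 9.46 to 9.51 in mimic arrays, so that the groups did not overlap. Its means were 9.34 ± 0.06 and 9.48 ± 0.02 (SD, n = 6 each), a log2 difference of 0.14 (limma adjusted p = 0.267 over all rows; adjusted p = 0.0440 in the brightest 25% fitted alone). CBX5 ran from 9.39 to 9.61 in controls and from 9.28 to 9.49 in mimic arrays, with a log2 difference of -0.07 and a 95% interval from -0.18 to 0.05 (limma adjusted p = 0.688). After removal of group means, the correlation over 12 arrays was -0.52 between CBX3 and HNRNPA2B1 and -0.23 between CBX5 and HNRNPA1. For the other measured neighbours the log2 differences were 0.02 for NFE2L3, -0.05 for VGLL3, -0.02 for POU1F1, -0.11 for MASP2 and 0.05 for CIROZ, all with limma adjusted p of at least 0.655. NFE2, beside HNRNPA1, was not analysed here.

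**Figure D3:**
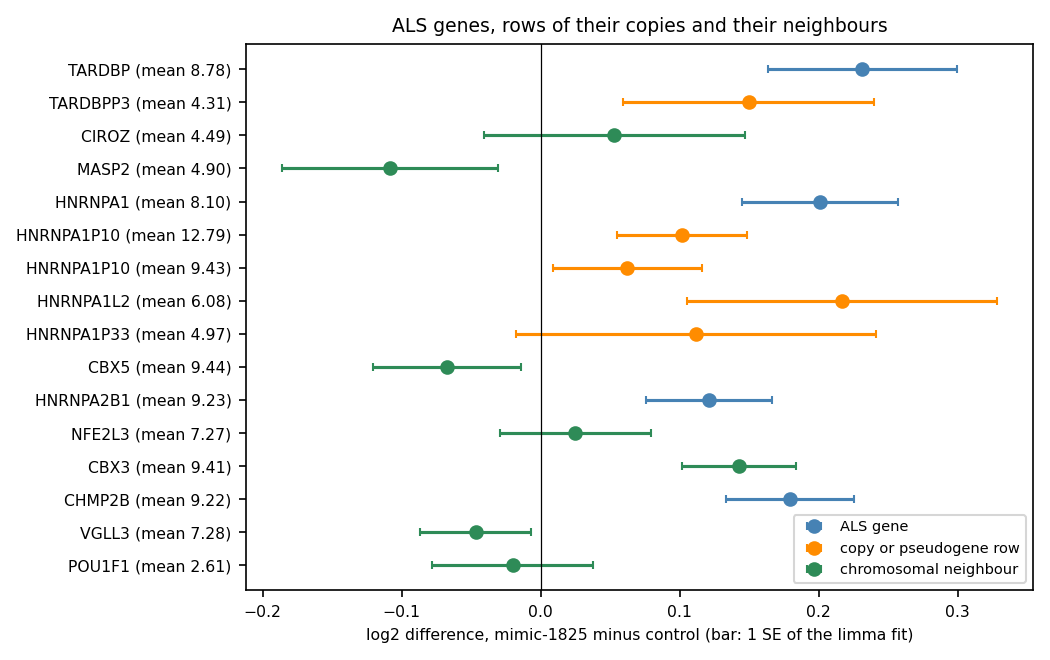
Log2 difference, mimic-1825 minus control (horizontal axis; bars, 1 SE of the limma fit; n = 6 arrays per group), for the 4 ALS genes (blue), rows of their copies (orange) and their chromosomal neighbours (green), with each row's mean log2 value. The copies all lie to the right of 0; among the neighbours CBX3, at 0.14, is the farthest to the right and MASP2, at -0.11, the farthest to the left.

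Other members of the hnRNP family mostly had slightly higher means after the mimic. This list and the others below were drawn up with earlier results of these data known, so their counts are a description. Of 28 others listed, 23 had a row, 20 with a higher and 3 with a lower mean. Over all rows 46.6% had a higher mean. That share was not taken over the brightest 25%, so the split has no matched yardstick. The median log2 difference of the 23 was 0.04, against -0.01 over all rows and 0.02 over the brightest 25%. With limma 0 passed the adjusted threshold, while 4 (17.4%) were higher and 0 lower at an unadjusted p under 0.05. The shares were 5.36% and 5.40% over all rows. Among the brightest 25%, where 20 of the 23 lie, they were 11.6% and 4.46%. HNRNPDL, a close paralogue of HNRNPD, went from 10.52 ± 0.08 to 10.67 ± 0.05 (log2 difference 0.16, limma adjusted p = 0.298). HNRNPR, which binds mRNA in axons, differed by 0.11 with no overlap between groups, and the splicing regulators HNRNPH1 and HNRNPLL by 0.12 and 0.15. Groups lay apart and higher in 2 of the 23, beside 0.759% of all rows and 2.52% of the brightest 25%. HNRNPA1L2, given above with the copies, is counted in this list too and had its largest difference. Other relatives of the A/B type were HNRNPAB at 0.04 (SE 0.04) and HNRNPA0 at -0.02 (SE 0.05). The HNRNPA3 row had a mean under 4, and HNRNPD was not analysed here.

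Prion-like RNA-binding proteins other than the 3 under study also mostly had higher means. Of 23 listed, 15 had a row, 13 with a higher mean, beside 46.6% of all rows. The share with a higher mean was not taken over the brightest 25%. The median log2 difference of the 15 was 0.06, against 0.02 over the brightest 25%. Again 0 passed the adjusted threshold with limma, and 3 were higher and 0 lower at an unadjusted p under 0.05, beside 5.36% higher over all rows and 11.6% among the brightest 25%, where 14 of the 15 lie. They were the stress granule genes G3BP2 (from 8.54 ± 0.05 to 8.66 ± 0.03, with no overlap) and TIA1 (0.13), and RBM45 (0.15). G3BP2 was the 1 of 15 that lay apart and higher, beside 0.759% of all rows and 2.52% of the brightest 25%. EWSR1 differed by 0.09 (SE 0.04), ATXN2 by 0.07 (SE 0.04) and MATR3 by 0.06 (SE 0.04), none of them at an unadjusted p under 0.05. TAF15 was not analysed here.

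Nuclear import receptors carry these proteins into the nucleus, transportins the hnRNP A proteins and importin alpha with KPNB1 TDP-43. Of 20 listed genes 17 had a row, 10 with a higher and 7 with a lower mean, and the median log2 difference was 0.02. The 17 include RANGAP1 and RANBP2, which are not receptors themselves. With limma 0 passed the adjusted threshold; 3 (17.6%) were higher and 0 lower at an unadjusted p under 0.05, beside 5.36% higher over all rows and 11.6% among the brightest 25%. KPNA5, an importin alpha, went from 8.70 ± 0.05 to 8.88 ± 0.08 (log2 difference 0.17, limma adjusted p = 0.261), with all 6 mimic arrays above all controls. KPNA4 differed by 0.18 and TNPO2 by 0.12. KPNB1 and TNPO1, at 0.06 and 0.08, also had groups that did not overlap, with limma adjusted p of 0.544 and 0.499. Rows that lay apart and higher were 0.759% of all rows and 2.52% of the brightest 25%.

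Among the partners of CHMP2B the means went both ways. Of 20 other genes listed for ESCRT-III and its ATPase, 16 had a row, 8 higher and 8 lower, with a median log2 difference of 0.005. The 16 include SPAST, USP8, STAMBP and LEMD2, which are neither subunits of ESCRT-III nor its ATPase. With limma 0 passed the adjusted threshold over all rows. At an unadjusted p under 0.05, 1 (6.25%) was higher and 0 lower, beside 5.36% higher over all rows and 11.6% among the brightest 25%. In 1 of the 16 the groups lay apart and higher, beside 0.759% of all rows and 2.52% of the brightest 25%. In both counts the gene was SPAST, which encodes spastin, a microtubule-severing enzyme that ESCRT-III recruits. Its controls had a mean of 9.22 ± 0.07 and its mimic arrays of 9.43 ± 0.03, with no overlap. The log2 difference was 0.21 (limma adjusted p = 0.200 over all rows). SPAST was called in the brightest 25% fitted alone (limma adjusted p = 0.0259) and with a trend and robust prior (limma adjusted p = 0.0399). No other alternative run called it, among them quantile and median scaling, the replicate block and leaving out arrays. CHMP2A, the paralogue of CHMP2B, was -0.08 with a 95% interval from -0.18 to 0.02, and CHMP4B, the main filament subunit, was -0.01. The ATPase genes VPS4A and VPS4B, which take the filament apart, were -0.05 (SE 0.06) and 0.08 (SE 0.05). IST1 was 0.13 (SE 0.07), USP8 0.10 (SE 0.05), CHMP4A -0.04 (SE 0.07) and CHMP6 0.01 (SE 0.05), and CHMP3 was not analysed here.

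ESCRT-0, -I and -II, which gather ubiquitylated cargo ahead of ESCRT-III, had 12 of 15 listed genes on the array, 8 with a higher and 4 with a lower mean. Their median log2 difference was 0.02; with limma 0 passed the adjusted threshold, and 2 (16.7%) were higher and 0 lower at an unadjusted p under 0.05, beside 5.36% higher over all rows and 11.6% among the brightest 25%. VPS36, an ESCRT-II subunit, went from 7.25 ± 0.05 to 7.42 ± 0.07 with no overlap. Its log2 difference was 0.17 (limma adjusted p = 0.240 over all rows). It was called in the brightest 25% fitted alone (limma adjusted p = 0.0381) and under no other alternative run. The ESCRT-0 genes STAM and STAM2 differed by 0.10 each, STAM2 not at an unadjusted p under 0.05. VPS36 was the 1 of 12 that lay apart and higher, beside 0.759% of all rows and 2.52% of the brightest 25%.

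Transcripts that TDP-43 is known to splice or stabilise were read because the TARDBP mean was higher. Of 26 listed, 17 had a row, 10 with a higher and 7 with a lower mean, and the median log2 difference was 0.004. With limma 0 passed the adjusted threshold. At an unadjusted p under 0.05, 1 (5.88%) was higher and 1 lower, beside 5.36% and 5.40% of all rows. Among the brightest 25%, where 12 of the 17 lie, the shares were 11.6% and 4.46%. STAG2, a cohesin subunit gene, differed by 0.12 with no overlap, and ARHGAP32 by -0.13. STAG2 was the 1 of 17 that lay apart and higher, beside 0.759% of all rows and 2.52% of the brightest 25%. MADD, at -0.11 (SE 0.06), was not at an unadjusted p under 0.05. A value per transcript cluster sums over its probes and does not resolve the exons that TDP-43 regulates.

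The other ALS-linked genes stood near the rest of the array. Of 35 others listed, 24 had a row, 13 with a higher and 11 with a lower mean, and the median log2 difference was 0.01. With limma 0 passed the adjusted threshold. At an unadjusted p under 0.05, 2 (8.33%) were higher and 1 lower, beside 5.36% and 5.40% of all rows. Among the brightest 25%, where 19 of the 24 lie, the shares were 11.6% and 4.46%. The 2 higher were TBK1, a kinase of autophagy receptors (0.13), and TIA1 (0.13). PRPH, which encodes the neuronal filament peripherin, was lower (-0.14). None of the 24 had groups that did not overlap, against 0.759% of all rows apart and higher and 0.414% apart and lower. The 4 genes under study had been picked from a list of this kind on these arrays, so that they exceed its median is a product of the choice.

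**Figure D4:**
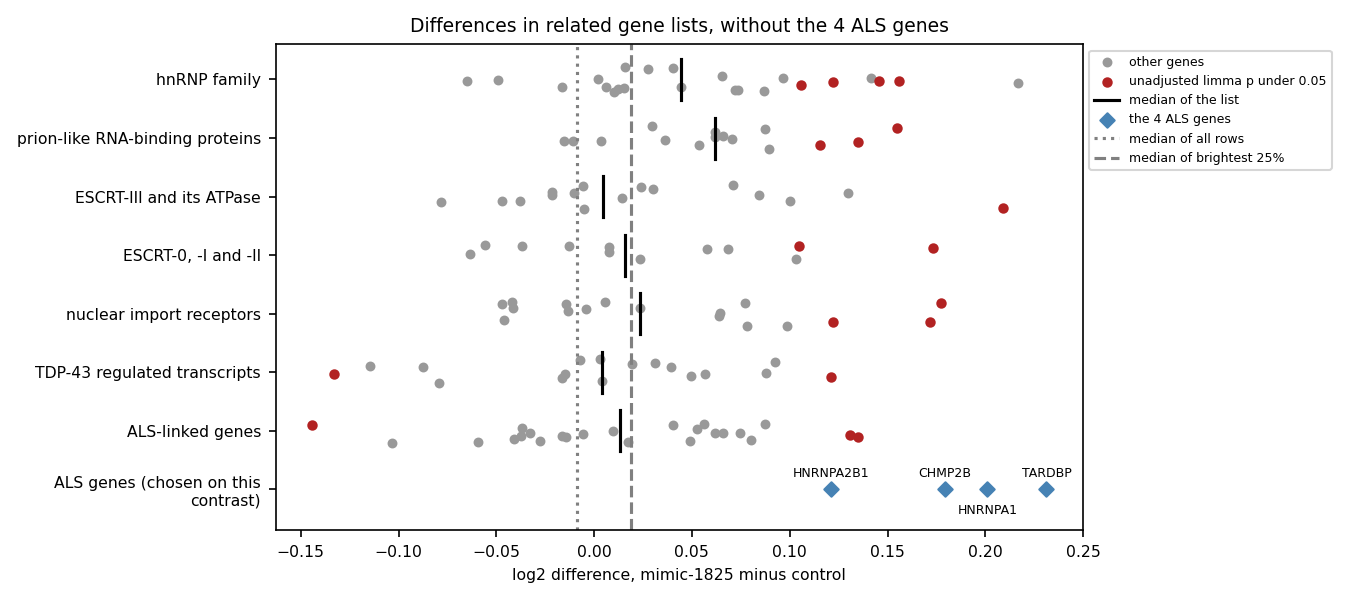
Log2 difference, mimic-1825 minus control (horizontal axis), of each measured gene (points) in 7 related lists without the 4 ALS genes, which are shown as diamonds in the bottom line and had been chosen on this contrast; red points had an unadjusted limma p under 0.05 and black bars are list medians. The medians lie between 0.004 and 0.06, beside -0.01 for all rows (dotted) and 0.02 for the brightest 25% (dashed).

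Over the 7 lists together, 120 of 161 genes had a row, and the median log2 difference was 0.02. With limma 0 passed the adjusted threshold, 15 were higher at an unadjusted p under 0.05 (12.5%, against 5.36% of all rows and 11.6% of the brightest 25%) and 2 were lower. The split depended on the scaling, with 10 higher and 4 lower after quantile normalization and 17 and 0 with arrays centred on their medians. Groups lay apart and higher in 9 of the 120 and apart and lower in 0, against 0.759% and 0.414% of all rows and 2.52% and 0.776% of the brightest 25%.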

How the data were processed

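The deposited table holds 1 log2 value per row and array for 12 arrays; per the submitters' processing notes, the authors used Affymetrix Expression Console. Its version, normalization and genome build are unstated in the labels. The scale was read from the values, which run from 1.62 to 14.4 with array medians of 4.44 to 4.51. Rows were named through the platform annotation (16098 rows with 1 symbol, 0 with several, 37519 unnamed here), and a gene with several rows was represented by the row with the highest mean. limma 3.58.1 in R 4.3.3 (lmFit, eBayes, no trend, no block) was fitted to all rows, two-sided, with Benjamini-Hochberg adjustment over all of them. The fit was also run on simulated rows with shifts larger than the differences given here. That run does not show how limma performs on differences of this size. Standard errors of differences are limma's. Whether replicates were separate cultures is not stated, and p-values reflect the spread among these arrays alone, part or all of which may be technical. The number of arrays limits the precision, and depth is not defined for arrays.

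The members and gene lists were chosen with earlier results of these data known. Named genes were the 4 genes, fixed relatives by role, the 3 genes with the smallest p of each list, the 5 genes most correlated with each of the 4, and rows of copies; chromosomal neighbours were added. Alternatives were quantile and median scaling, a trend and robust prior, brightness filters, the replicate block and leaving out arrays.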

Additional observations from a re-analysis of the deposited data

Results flagged for a closer look

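In 140 groups of 6 arrays (70 rows named in the text, each in both groups), the highest or lowest array was set against the rest, and 8 stood apart by Dixon's 95% critical value; chance gives about 1 in 20 groups. For TARDBP, mimic replicate 4 was highest at 9.17, against 8.78 to 8.91. Its near match EFEMP2 was highest on the same array, at 7.04 against 6.75 to 6.85. HNRNPA3 was lowest in control replicate 4, at 3.29 against 3.47 to 3.57, and USP8 highest in mimic replicate 1, at 9.21 against 9.05 to 9.11. SNAI2 was lowest in mimic replicate 3, at 11.22 against 11.28 to 11.31, and LINC02035 lowest in mimic replicate 5, at 4.82 against 5.28 to 5.44. ANPEP was lowest in control replicate 2, at 4.53 against 4.84 to 5.02, and VGLL3 highest there, at 7.39 against 7.26 to 7.30. EFEMP2, SNAI2, LINC02035 and ANPEP had been named because their deviations followed TARDBP, HNRNPA1, CHMP2B and HNRNPA2B1. Each stood apart on the array where that gene was itself highest or lowest in its group. These flags follow in part from the choice, so the rate of 1 in 20 is no yardstick for them.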

How the results depend on the processing

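The differences of the 4 genes kept their sign and moved by less than 1 SD under every alternative run: quantile normalization gave 0.21, 0.17, 0.10 and 0.16 for TARDBP, HNRNPA1, HNRNPA2B1 and CHMP2B, and median centring 0.25, 0.22, 0.14 and 0.19. Without single arrays they ranged from 0.18 to 0.26, 0.18 to 0.23, 0.10 to 0.14 and 0.16 to 0.20. Each gene had 1 row, so the planned mean over rows could not differ.

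The 6 calls over all rows were 39 with a trend and robust prior, 13 at or above the median row mean, 242 in the brightest 25%, 0 with the replicate block and 0 to 6 without single arrays. The 15 list genes higher at an unadjusted p were 30 with a trend and robust prior, 25 in the brightest 25%, 10 with the replicate block and 11 to 18 without single arrays. Their 0 adjusted calls became 1 (SPAST) with a trend and robust prior and 2 (SPAST and VPS36) in the brightest 25%. Replicate numbers recur in both groups, but over the brightest rows the correlation of deviations within a number lay between -0.11 and 0.13, and 1 of 6 controls correlated best with its own number, so the arrays were not treated as paired.

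Without single arrays the correlations ranged from -0.21 to 0.45 (TARDBP and HNRNPA1), -0.46 to 0.25 (TARDBP and HNRNPA2B1), -0.11 to 0.28 (TARDBP and CHMP2B), 0.52 to 0.70 (HNRNPA1 and HNRNPA2B1), 0.44 to 0.63 (HNRNPA1 and CHMP2B) and 0.32 to 0.78 (HNRNPA2B1 and CHMP2B). Background levels were not known, so rows near or below the median row mean may hold little signal.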
